A study of Mus musculus with 17 samples.

Results

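The genes described here are 33 members of the cholesterol and fatty acid synthesis pathways, together with their main regulators and sterol exporters. They were taken by gene symbol from count tables that list 24015 genes. Of 34 symbols looked up, 33 were found. Sc4mol, an older symbol of Msmo1, had no row of its own. By role they comprised 8 mevalonate and isoprenoid enzymes, 11 enzymes of the squalene-to-cholesterol branch, 6 regulators, 2 exporters and 6 fatty acid genes. Messenger RNA was sequenced from cells of CD-1 background in 5 groups. Mouse embryonic fibroblasts (MEF, n = 3), the untreated controls, had 3 passages in MEF medium. XEN cells, lines of extraembryonic endoderm stem cells, and iXEN cells, the induced counterpart named in the study's title as a product of the reprogramming factors OSKM, first had 10 passages in ESC medium. They then had 5 more passages in ESC medium (XEN, n = 3; iXEN, n = 4) or in XEN medium (XEN, n = 3; iXEN, n = 4). MEF thus differed from every other group in cell type, medium and passage number, which cannot be told apart in these comparisons. The sources used here do not give the vector that carried the factors or the embryos of origin, and nothing says which libraries came from separate derivations, so p-values measure the spread between these libraries.

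Cholesterol is built from acetyl-CoA. Mevalonate enzymes make isoprenoid units, farnesyl diphosphate is joined into squalene, and squalene is closed into lanosterol and trimmed to cholesterol. Most of these enzymes, and several of fatty acid synthesis, are transcribed under SREBP factors, which the escort protein SCAP carries to the Golgi when sterols are scarce and INSIG proteins hold back when sterols are plentiful. Sterol surplus is sensed separately by the nuclear receptor LXR, which drives the exporters Abca1 and Abcg1 and also Srebf1. Extraembryonic endoderm forms the yolk sac endoderm, a tissue that handles lipid and lipoprotein for the embryo.

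Libraries held 20071567 to 45914262 reads in genes. Levels are given as CPM, counts scaled to a common total of reads in genes and between libraries by the TMM method, and values within a group follow library number (MEF, XEN and iXEN libraries are numbered 1, 2 and 3, then 1, 2 and 7, then 1, 2, 6 and 9). A gene is called higher or lower in a comparison where edgeR's quasi-likelihood test, adjusted over all genes tested, gave p under 0.05. The 6 XEN markers (Gata4, Gata6, Sox17, Sox7, Dab2 and Foxq1) summed to 1236 to 3456 CPM in XEN and iXEN libraries against 168 to 234 in MEF. Sox7 was near its MEF level (0.387 to 0.560 CPM) in XEN 7, at 0.470 in ESC and 0.805 in XEN medium. In the other XEN and iXEN libraries Sox7 stood at 40.7 to 272 CPM. Dab2 was 227 CPM in XEN 7 in ESC medium, close to the 220 of MEF 3. The 8 fibroblast markers (Col1a1, Col1a2 and others) summed to 35181 to 49036 CPM in MEF, but also to 7569 in XEN ESC medium 1, 2199 in iXEN XEN medium 2 and 979.6 in iXEN XEN medium 9. XEN ESC medium 2 had 318, and the other 10 had at most 22.4. Macrophage markers (5 genes) summed to 26.4 to 90.7 CPM in MEF and 2.55 to 27.5 elsewhere, adipocyte markers (6 genes) to 254 to 568 and 0.343 to 129, neuron markers (3 genes) to 18.1 to 33.2 and 0 to 12.3, and pluripotency markers (5 genes) to 1.08 to 1.17 and 1.66 to 26.02. Several of these sums were mostly 1 gene. In MEF, Lpl gave 562, 265 and 248 CPM of the adipocyte sum, and 3 of the 6 adipocyte markers were under 1 CPM in every MEF library. Stmn2 gave 32.4, 23.7 and 15.8 CPM of the neuron sum in MEF. The macrophage sum of 27.5, in iXEN ESC medium 6, held 22.1 of Csf1r, and the pluripotency sum of 26.02, in iXEN ESC medium 2, held 25.6 of Zfp42. In bulk RNA, fewer cells of a type and less RNA per cell cannot be told apart. One member, Hmgcs1, which makes HMG-CoA, had 0 counts in all 17 libraries, where 3 counts would be 0.0653 to 0.149 CPM. The other 32 passed the filter on low counts in each comparison.

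Cholesterol synthesis genes were lower in XEN and iXEN cells than in MEF. In iXEN cells in ESC medium 22 of 32 members were lower and 0 higher, while 25.9% of all genes tested were lower and 20.8% higher. In XEN cells in ESC medium 18 members were lower (all genes 13.7%), in iXEN cells in XEN medium 14 (all genes 14.9%) and in XEN cells in XEN medium 22 (all genes 24.5%). No member was called higher in any of these 4 comparisons, which share their MEF libraries; 11.4%, 17.7% and 23.0% of all genes were called higher in the last 3. With DESeq2, Abcg1 was called higher in iXEN cells in ESC medium (all genes 19.8%) and no member in the other 3 (all genes 17.9%, 18.6% and 22.4%). At unadjusted p under 0.05 in edgeR, Abcg1 was the 1 member higher in iXEN cells in ESC medium (all genes 25.2%), with 0 in the other 3. Without iXEN 6 in ESC medium, edgeR also called Abca1, Ggps1 and Srebf1 there, whose log2 fold changes with all libraries were positive. In that fit 3735 of 14333 genes were called higher. Among the 18 enzymes with counts, 16, 12, 9 and 15 were lower, in the same order. Their median log2 fold changes were -2.50, -1.65, -1.41 and -1.57, beside 0.03, -0.03, 0.06 and 0.02 over all genes. For 12 of the 18 enzymes each of the 14 XEN and iXEN libraries lay below each MEF library, as for 17.8% of all genes. These counts rest on few libraries: without MEF 1, 2 or 3 the members called lower were 4, 5 and 7 for XEN in ESC medium, 5, 8 and 9 for iXEN in XEN medium, and 12, 12 and 16 for XEN in XEN medium. For iXEN in ESC medium each of the 3 omissions left 22. Calls over all genes, in either direction, fell too. For XEN in ESC medium they went from 3507 of 14001 genes tested to 372 of 14468, 692 of 14415 and 562 of 14329. For iXEN in XEN medium they went from 4708 to 1847, 2245 and 1842, and for XEN in XEN medium from 6830 to 3985, 4632 and 4084. For iXEN in ESC medium they went from 6704 to 5072, 5400 and 5064. MEF 3 was the lowest of the MEF libraries for 29 of 32 members.

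**Figure D1:**
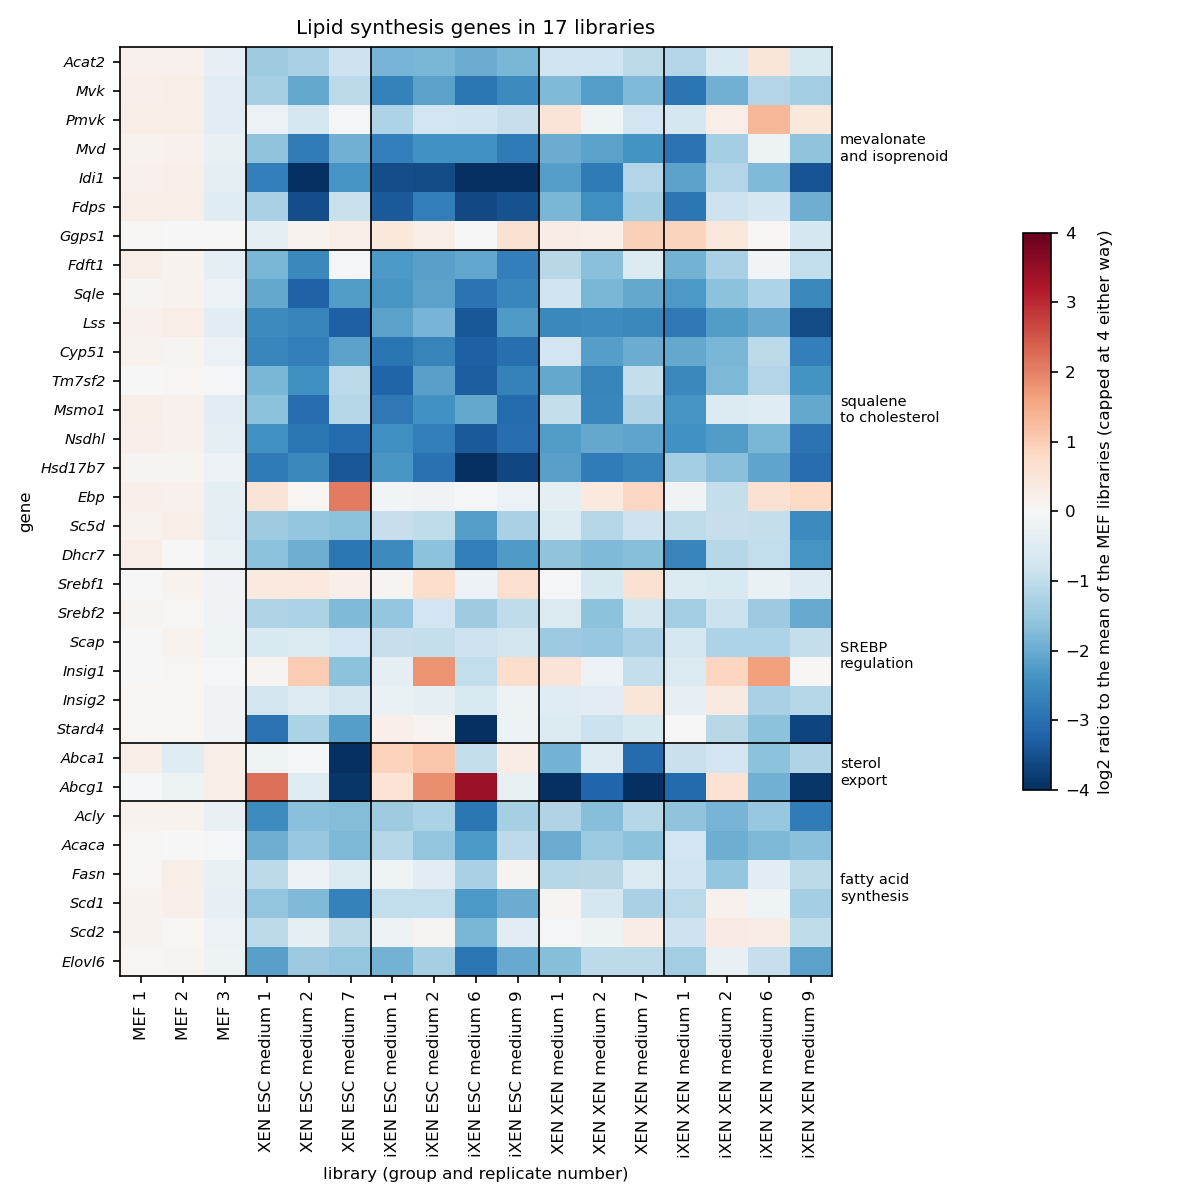
Each cell is the log2 ratio of a gene's level in a library (columns, by group) to the mean of the MEF libraries, on log2 CPM; rows are the 32 members with counts, ordered by role. Most enzyme rows are blue across the 14 XEN and iXEN libraries, with Ggps1, Ebp and Pmvk the mixed ones and Acat2 above MEF in iXEN 6 in XEN medium, while the regulators and exporters vary from library to library.

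Within the mevalonate and isoprenoid group, Idi1, the isomerase that interconverts the isoprenoid building blocks, had the most negative fold change in iXEN cells in ESC medium. Its level was 249.6, 254 and 166 CPM in MEF, 18.5, 18.4, 6.27 and 11.2 in iXEN and 32.9, 12.04 and 42.9 in XEN cells in ESC medium, and 49.6, 97.9, 64.2 and 19.95 and 47.9, 30.8 and 96.4 in iXEN and XEN cells in XEN medium. All 14 lay below the lowest MEF library. The log2 fold change against MEF was -4.001 ± 0.39 (SE) in iXEN cells in ESC medium, 16.0-fold lower (edgeR, adjusted p = 8.27e-05), and -1.87 ± 0.49 (SE) in XEN medium (edgeR, adjusted p = 0.0260). Mvk, mevalonate kinase, stood at 103, 105 and 66.9 CPM in MEF and at 11.7 to 43.0 in the other libraries. It was the only other member of its group called lower in all 4 comparisons, from -2.55 in iXEN cells in ESC medium to -1.39 in XEN cells in ESC medium on the log2 scale. Mvd, which decarboxylates mevalonate diphosphate, had 108, 112 and 79.7 CPM in MEF and 14.8, 18.4, 18.4 and 13.9 in iXEN cells in ESC medium, a difference of -2.57 ± 0.20 (SE) (edgeR, adjusted p = 2.39e-05). In XEN medium the 4 iXEN libraries spread from 12.7 to 85.8 CPM, with iXEN 6 inside the MEF range, and the difference from MEF was -1.15 ± 0.57 (SE) (edgeR, adjusted p = 0.151). Fdps, farnesyl diphosphate synthase, went from 412, 409.6 and 250.1 CPM in MEF to 33.6, 51.6, 28.6 and 31.1 in iXEN cells in ESC medium, 9.62-fold lower (edgeR, adjusted p = 3.93e-05); it was also called in XEN cells in XEN medium (-1.80), and was -1.51 ± 0.66 (SE) and -1.28 ± 0.54 (SE) in the comparisons where it was not. Acat2, the cytosolic thiolase that starts the pathway, was called in 3 of 4, at -1.86, -1.11 and -0.85; in XEN medium iXEN 6 held 177 CPM, above the 142, 143 and 101 of MEF. Its near-identical paralog Acat3 may share its reads.

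Pmvk and Ggps1 did not go with the rest. Pmvk, phosphomevalonate kinase, was called lower only in iXEN cells in ESC medium (-0.92 ± 0.22 (SE); edgeR, adjusted p = 0.00875), with 71.5, 71.6 and 44.7 CPM in MEF and 26.1, 35.6, 35.4 and 32.1 in those libraries. In XEN medium it spanned 35.6 to 87.7 CPM in XEN and 38.7 to 154 in iXEN cells, on both sides of MEF. Ggps1, which makes geranylgeranyl diphosphate for protein prenylation rather than sterol, had 21.0, 20.3 and 20.3 CPM in MEF and 12.7 to 40.1 elsewhere. It was above every MEF library in 11 of 14 and was called in no comparison, with log2 fold changes of 0.38, 0.10, 0.35 and 0.59 for iXEN and XEN in ESC medium, then iXEN and XEN in XEN medium.

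The squalene-to-cholesterol branch was more even. Of its 11 enzymes, 10 were lower in iXEN and 8 in XEN cells in ESC medium. In XEN medium 7 and 10 were. Called in all 4 comparisons were Sqle (squalene epoxidase), Lss (lanosterol synthase), Cyp51 (lanosterol demethylase), Tm7sf2 (sterol reductase), Nsdhl and Hsd17b7 (both of the C4 demethylation complex) and Dhcr7, a late sterol reductase. Hsd17b7 had 92.5, 92.9 and 72.4 CPM in MEF, 17.1, 10.8, 5.03 and 6.83 in iXEN and 11.9, 14.1 and 7.90 in XEN cells in ESC medium, and 33.0, 26.6, 19.6 and 10.3 and 18.9, 12.1 and 13.7 in iXEN and XEN cells in XEN medium. No library of the 14 reached a MEF value, and iXEN 6 in ESC medium was the lowest. The log2 fold changes against MEF were -3.08 ± 0.40 (SE), -2.86 ± 0.30 (SE), -1.88 ± 0.37 (SE) and -2.48 ± 0.23 (SE) in that order of groups (edgeR, adjusted p = 0.000381, 0.00436, 0.00948 and 0.000856). Lss in XEN cells in XEN medium was at 23.4, 24.1 and 23.3 CPM, against 155, 165 and 103 in MEF, 5.79-fold lower (edgeR, adjusted p = 0.000717). It was similarly low in ESC medium, at 23.7, 22.0 and 14.3 CPM in XEN and 31.1, 38.3, 13.2 and 28.8 in iXEN cells, and ranged from 11.4 to 34.2 in iXEN cells in XEN medium. Nsdhl had 150.2, 147 and 101 CPM in MEF and 12.5 to 36.8 across the 14 others, with log2 fold changes from -2.86 in iXEN cells in ESC medium to -2.11 in XEN cells in XEN medium. Sqle, a rate-limiting step of the branch, had 212, 214 and 166 CPM in MEF and 20.7 to 47.2 in the 7 libraries kept in ESC medium against 32.8 to 114 in the 7 in XEN medium. Tm7sf2 had 38.0, 38.4 and 35.2 CPM in MEF and 3.74 to 19.0 elsewhere, and Dhcr7 122, 99.8 and 84.6 and 13.5 to 50.6. In each of these 4 the MEF libraries stood above all others. Cyp51 fell by 2.94 on the log2 scale in iXEN cells in ESC medium, from 342, 330.2 and 259 to 40.5, 48.2, 31.9 and 37.8 CPM (edgeR, adjusted p = 1.12e-05).

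Ebp, the sterol isomerase, was the exception in this branch. It had 55.0, 53.4 and 37.3 CPM in MEF, 68.7, 50.01 and 202 in XEN cells in ESC medium and 44.3, 43.1, 46.6 and 40.7 in iXEN cells in ESC medium. XEN 7 in ESC medium held the highest value of all 17 libraries, and the 4 iXEN libraries lay within the MEF range. In XEN medium it spanned 37.3 to 85.8 CPM in XEN and 24.6 to 82.4 in iXEN cells. Ebp was called in none of the comparisons with MEF. Its log2 fold change was 1.22 ± 0.56 (SE) in XEN cells in ESC medium (edgeR, adjusted p = 0.152), and -0.12, 0.29 and 0.40 in iXEN cells in ESC and XEN medium and XEN cells in XEN medium. Msmo1 (sterol C4 methyl oxidase), Fdft1 (squalene synthase) and Sc5d (sterol desaturase) were called lower in both iXEN cells in ESC medium and XEN cells in XEN medium, and Sc5d also in XEN cells in ESC medium. Msmo1 had 213, 207 and 137 CPM in MEF, 25.2, 33.6, 44.0 and 21.6 in iXEN cells kept in ESC medium and 35.3, 124, 131 and 44.4 in those moved to XEN medium. Sc5d was 80.4, 84.4 and 55.4 CPM in MEF and 12.3 to 49.3 elsewhere, below all MEF libraries in each. For Fdft1 the XEN libraries in ESC medium read 59.1, 34.7 and 204 CPM against 247, 229.6 and 161 in MEF, so that XEN 7 fell inside the MEF range; the difference was -1.02 ± 0.67 (SE) (edgeR, adjusted p = 0.289).

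**Figure D2:**
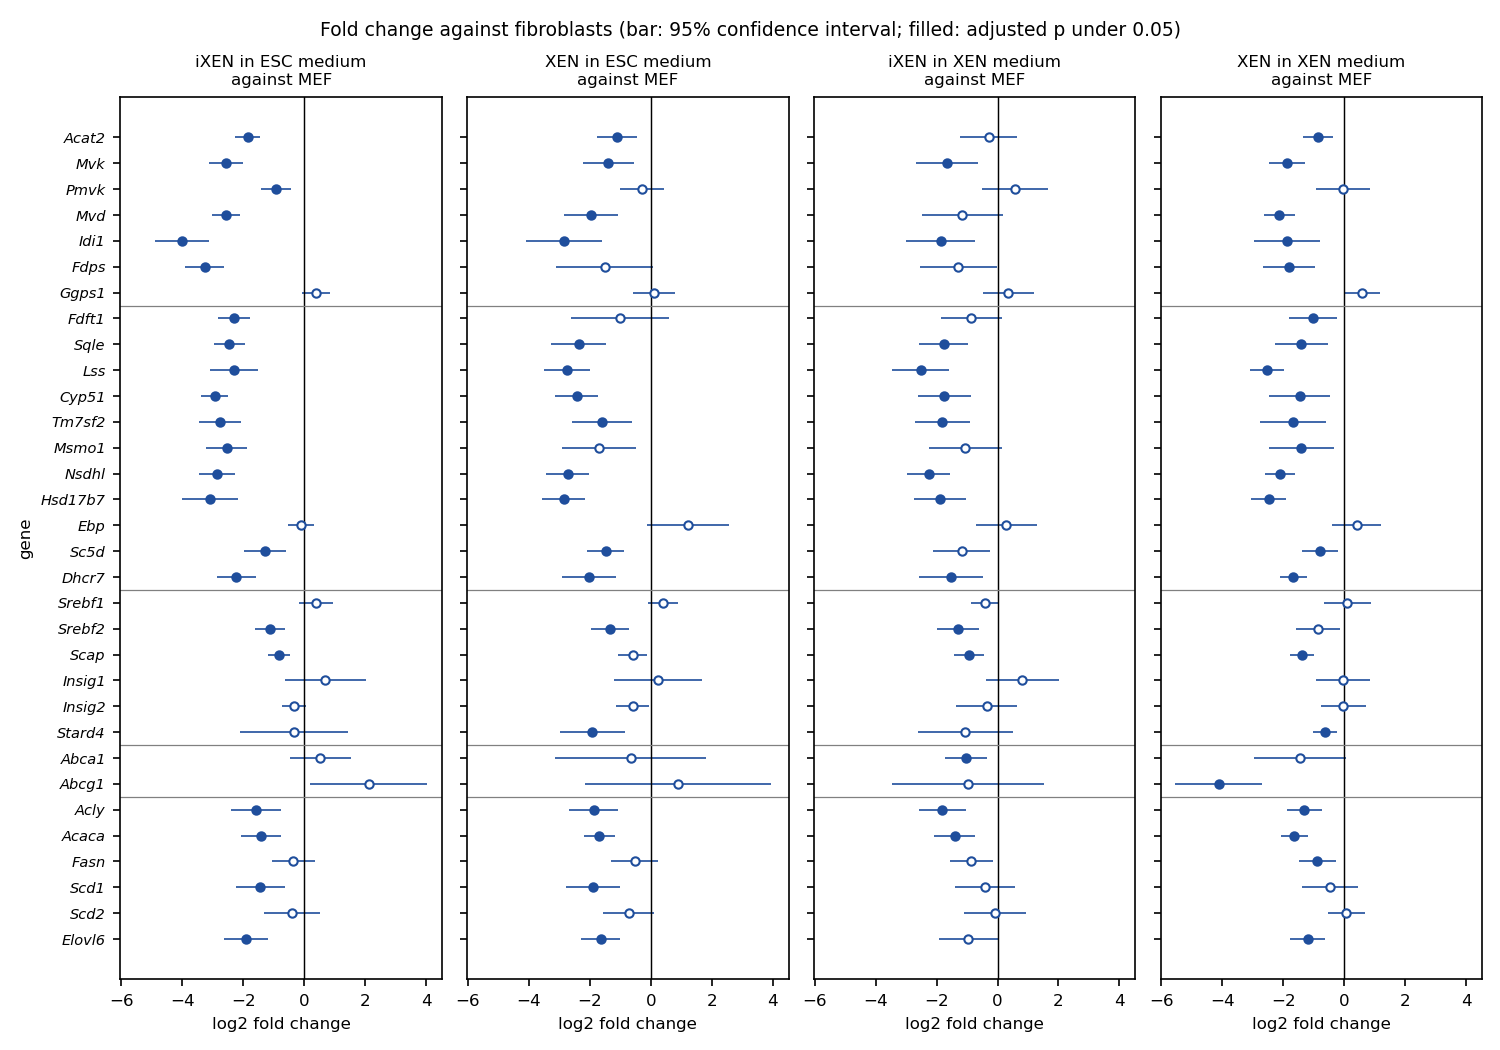
Points are log2 fold changes against MEF from edgeR with 95% confidence intervals (bars) in 4 panels, 1 per XEN or iXEN group; filled points have an adjusted p under 0.05. Filled points all lie left of 0, 22, 18, 14 and 22 of 32 from left to right, and among the enzymes Ggps1 lies right of 0 in all 4 panels and Ebp without a filled point in any.

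Promoters are shown for 2 enzymes called in at least 3 comparisons (Mvd and Lss) beside 2 members called in fewer (Ebp, called in none, and Fasn, called in 1). They are the bases before the annotated start, up to the first annotated exon, from RefSeq (GRCm38.p6), 5′ to 3′ on the gene's strand. Capitals mark CCAAT, the motif bound by NF-Y, a known partner of SREBP at sterol genes, written as ATTGG where it lies on the opposite strand. Mvd is at chr8:122443423-122443672 on the minus strand, Lss at chr10:76531355-76531587 on the plus strand, Ebp at chrX:8193513-8193762 and Fasn at chr11:120824548-120824797, both on the minus strand.
Mvd: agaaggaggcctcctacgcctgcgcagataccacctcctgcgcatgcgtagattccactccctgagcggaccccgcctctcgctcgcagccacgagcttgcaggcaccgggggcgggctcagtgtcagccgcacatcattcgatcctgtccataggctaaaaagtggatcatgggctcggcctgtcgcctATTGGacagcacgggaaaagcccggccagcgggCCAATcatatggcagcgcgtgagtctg
Lss: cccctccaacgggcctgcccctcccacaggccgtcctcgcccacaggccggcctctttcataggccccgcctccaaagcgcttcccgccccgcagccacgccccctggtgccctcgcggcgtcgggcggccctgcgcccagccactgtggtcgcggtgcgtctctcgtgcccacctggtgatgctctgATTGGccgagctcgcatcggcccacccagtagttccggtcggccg
Ebp: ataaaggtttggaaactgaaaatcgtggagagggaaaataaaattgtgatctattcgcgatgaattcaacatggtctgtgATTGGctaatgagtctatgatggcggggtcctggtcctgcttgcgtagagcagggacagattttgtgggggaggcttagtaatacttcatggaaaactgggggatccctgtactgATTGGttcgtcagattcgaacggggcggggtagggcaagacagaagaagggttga
Fasn: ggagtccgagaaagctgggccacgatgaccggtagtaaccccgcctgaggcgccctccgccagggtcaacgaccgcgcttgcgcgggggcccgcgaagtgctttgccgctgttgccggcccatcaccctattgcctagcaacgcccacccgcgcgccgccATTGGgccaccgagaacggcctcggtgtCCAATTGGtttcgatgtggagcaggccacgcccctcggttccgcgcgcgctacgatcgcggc
Mvd and Ebp each held 2 matches, Lss 1 and Fasn 3, of which 2 overlap on opposite strands, so of these 4 the motif was also present in Ebp, which was called in no comparison. RefSeq windows of 250 bases before to 50 after the start were matched for 26 of the 33 members. The enzymes with a window included Hmgcs1, which had no counts, but not Fdps, Fdft1 or Sqle. CCAAT on either strand was in 15 of 16 enzymes with a window (all but Acat2) and 6 of 10 other members, and in 41.1% of all 27025 genes with such windows. The GC box GGGCGG, read by Sp1, was in 14 of 16 enzymes, 7 of 10 others and 38.2% of all genes. CACGTG, an E-box, was in 3, 3 and 8.09%. The core of the sterol regulatory element, to which SREBP binds, searched as TCACNCCAC, was in Hmgcs1 alone, against 1.44% of all genes. All motifs were searched on both strands; genes with several annotated starts had more than 1 window, and a match describes the letters, not a bound site.

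**Figure D3:**
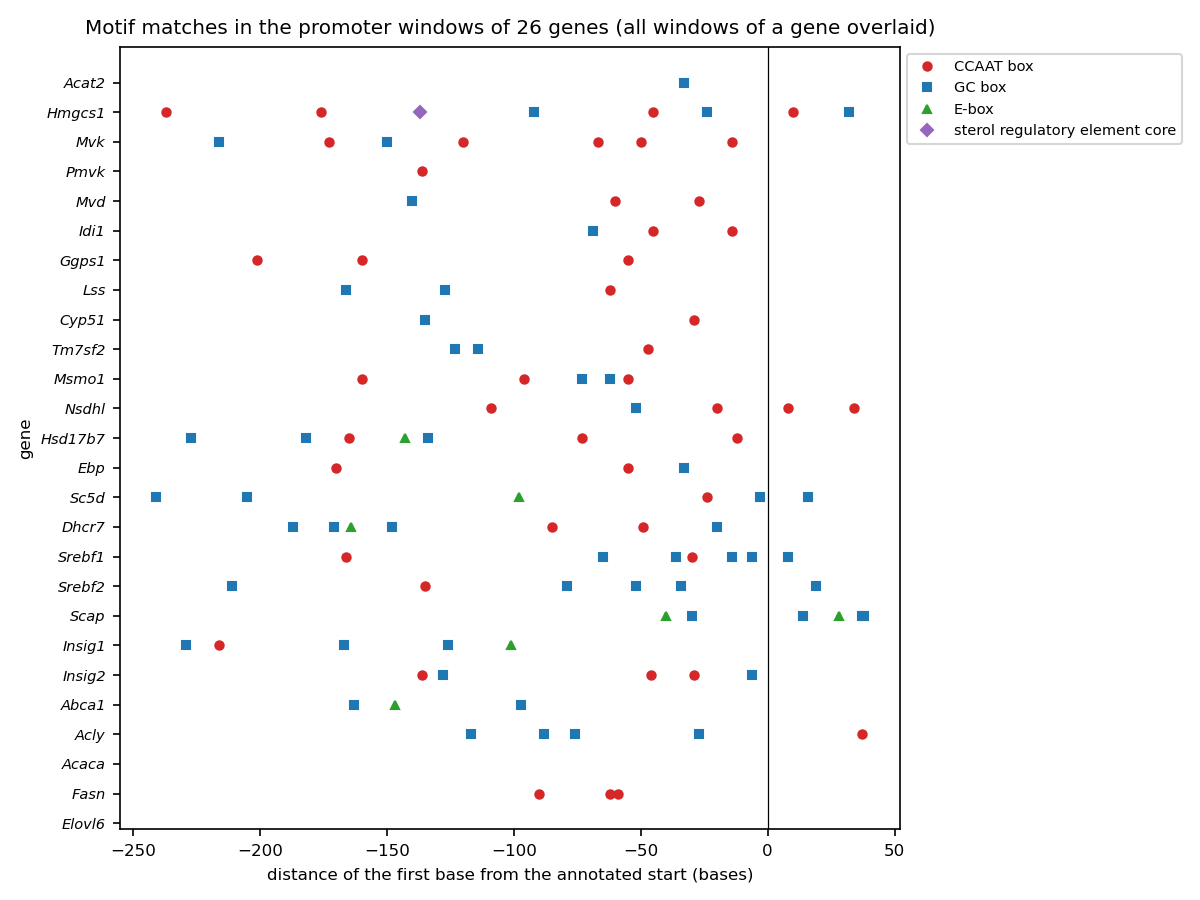
Each mark is a motif match at its distance in bases from the annotated start (0), for the 26 members with a RefSeq promoter window, with all windows of a gene overlaid. CCAAT matches are present in 15 of 16 enzymes and 6 of 10 other members, Ebp and Ggps1, called in no comparison with MEF, among them.

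Among the regulators, Srebf2, the SREBP gene most tied to cholesterol synthesis, and Scap, its escort, were below every MEF library in all 14 others. Srebf2 had 346, 335 and 289.8 CPM in MEF, 110.4, 189, 121 and 161 in iXEN and 139, 134 and 94.7 in XEN cells in ESC medium, and 122, 178, 119 and 79.5 and 217, 103 and 192 in iXEN and XEN cells in XEN medium. Its log2 fold changes were -1.12 ± 0.22 (SE), -1.34 ± 0.25 (SE) and -1.296 ± 0.30 (SE) (edgeR, adjusted p = 0.00305, 0.0154 and 0.0168), and -0.87 ± 0.30 (SE) in XEN cells in XEN medium, which was not called (adjusted p = 0.0517). Scap had 93.8, 102 and 82.6 CPM in MEF and was lowest in XEN cells in XEN medium, at 33.9, 32.5 and 37.7, a difference of -1.37 ± 0.16 (SE) (edgeR, adjusted p = 0.00161). It was also called in both iXEN comparisons, at -0.83 and -0.94. Srebf1, the SREBP gene tied to fatty acid synthesis, did not follow: 111, 123 and 102 CPM in MEF, 147, 145 and 129.9 in XEN and 119.9, 182, 95.4 and 173 in iXEN cells in ESC medium, with 6 of 14 libraries above and 6 below all MEF libraries and no call. The SREBP inhibitors Insig1 and Insig2 were called in no comparison, although Insig2, at 41.5, 41.7 and 35.5 CPM in MEF and 15.9 to 55.5 elsewhere, was below all MEF libraries in 12 of 14. Insig1 was even across MEF (196, 208 and 186 CPM) but spread from 62.5 to 681 CPM in the others, from XEN 7 to iXEN 2, both in ESC medium. Stard4, a cytosolic sterol carrier, had 60.4, 59.8 and 51.5 CPM in MEF and 7.39, 23.6 and 12.5 in XEN cells in ESC medium, 3.79-fold lower (edgeR, adjusted p = 0.0265). It was also called in XEN cells in XEN medium, at -0.63. In iXEN cells in ESC medium it read 65.8, 61.3, 2.54 and 49.997 CPM, so that iXEN 1, 2 and 9 were near or above MEF and iXEN 6 far below.

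The exporters varied widely between libraries. Abcg1 had 4.49, 4.14 and 5.74 CPM in MEF, 22.0, 3.36 and 0.261 in XEN and 6.93, 17.5, 52.3 and 3.89 in iXEN cells kept in ESC medium. In XEN medium it had 0.147, 0.468 and 0.177 in XEN and 0.494, 7.04, 1.20 and 0.261 in iXEN cells. The 3 XEN values in XEN medium rest on 6, 17 and 9 counts. All 3 lay below MEF, 17.5-fold lower by the model (log2 fold change -4.13 ± 0.59 (SE); edgeR, adjusted p = 0.00288). In iXEN cells in ESC medium it was 2.11 ± 0.84 (SE) relative to MEF, not called (edgeR, adjusted p = 0.0697). Abca1 had 84.0, 51.1 and 84.1 CPM in MEF and only 1.93 in XEN 7 in ESC medium, where XEN 1 and 2 read 63.7 and 67.6. It was called lower only in iXEN cells in XEN medium, at 38.4, 42.1, 22.8 and 30.8 CPM (-1.04 ± 0.29 (SE); edgeR, adjusted p = 0.0330).

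Of the 6 fatty acid genes, Acly, which makes cytosolic acetyl-CoA from citrate, and Acaca, the acetyl-CoA carboxylase that commits it to fatty acids, were lower in all 4 comparisons. Acly had 667, 659.7 and 491 CPM in MEF, 226, 251, 80.9 and 239.8 in iXEN and 105, 188 and 182 in XEN cells in ESC medium, and 197, 167, 211 and 86.2 and 259, 184 and 269.6 in iXEN and XEN cells in XEN medium. Its log2 fold changes were -1.57 ± 0.36 (SE), -1.87 ± 0.33 (SE), -1.81 ± 0.33 (SE) and -1.305 ± 0.24 (SE) (edgeR, adjusted p = 0.00754, 0.0138, 0.00752 and 0.00651). Acaca went from 166, 153 and 149 CPM in MEF to 31.7 to 91.3 in the other 14, with log2 fold changes of -1.41, -1.69, -1.41 and -1.64. Elovl6, which extends palmitate, was called in 3 of 4, from -1.90 in iXEN cells in ESC medium to -1.19 in XEN cells in XEN medium. Scd1, a desaturase that makes oleate, was lower only in ESC medium: 436, 458 and 317 CPM in MEF, 201, 201, 81.0 and 102 in iXEN (-1.43 ± 0.35 (SE); edgeR, adjusted p = 0.00991) and 134, 117 and 60.7 in XEN cells (-1.90 ± 0.37 (SE); edgeR, adjusted p = 0.0165). In XEN medium it read 435, 249 and 164 in XEN and 190.2, 449, 358 and 154 in iXEN cells, -0.47 and -0.40 relative to MEF. Its paralog Scd2 was called in no comparison, with 2214, 2099 and 1696 CPM in MEF and 563 to 2518 elsewhere; reads shared by Scd paralogs may have been left out of both. Fasn, which builds palmitate, was called lower only in XEN cells in XEN medium, at 239, 242 and 353 CPM against 556, 613 and 427 in MEF (-0.89 ± 0.25 (SE); edgeR, adjusted p = 0.0294). In iXEN cells in ESC medium its 466, 393, 214 and 562 CPM overlapped MEF.

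**Figure D4:**
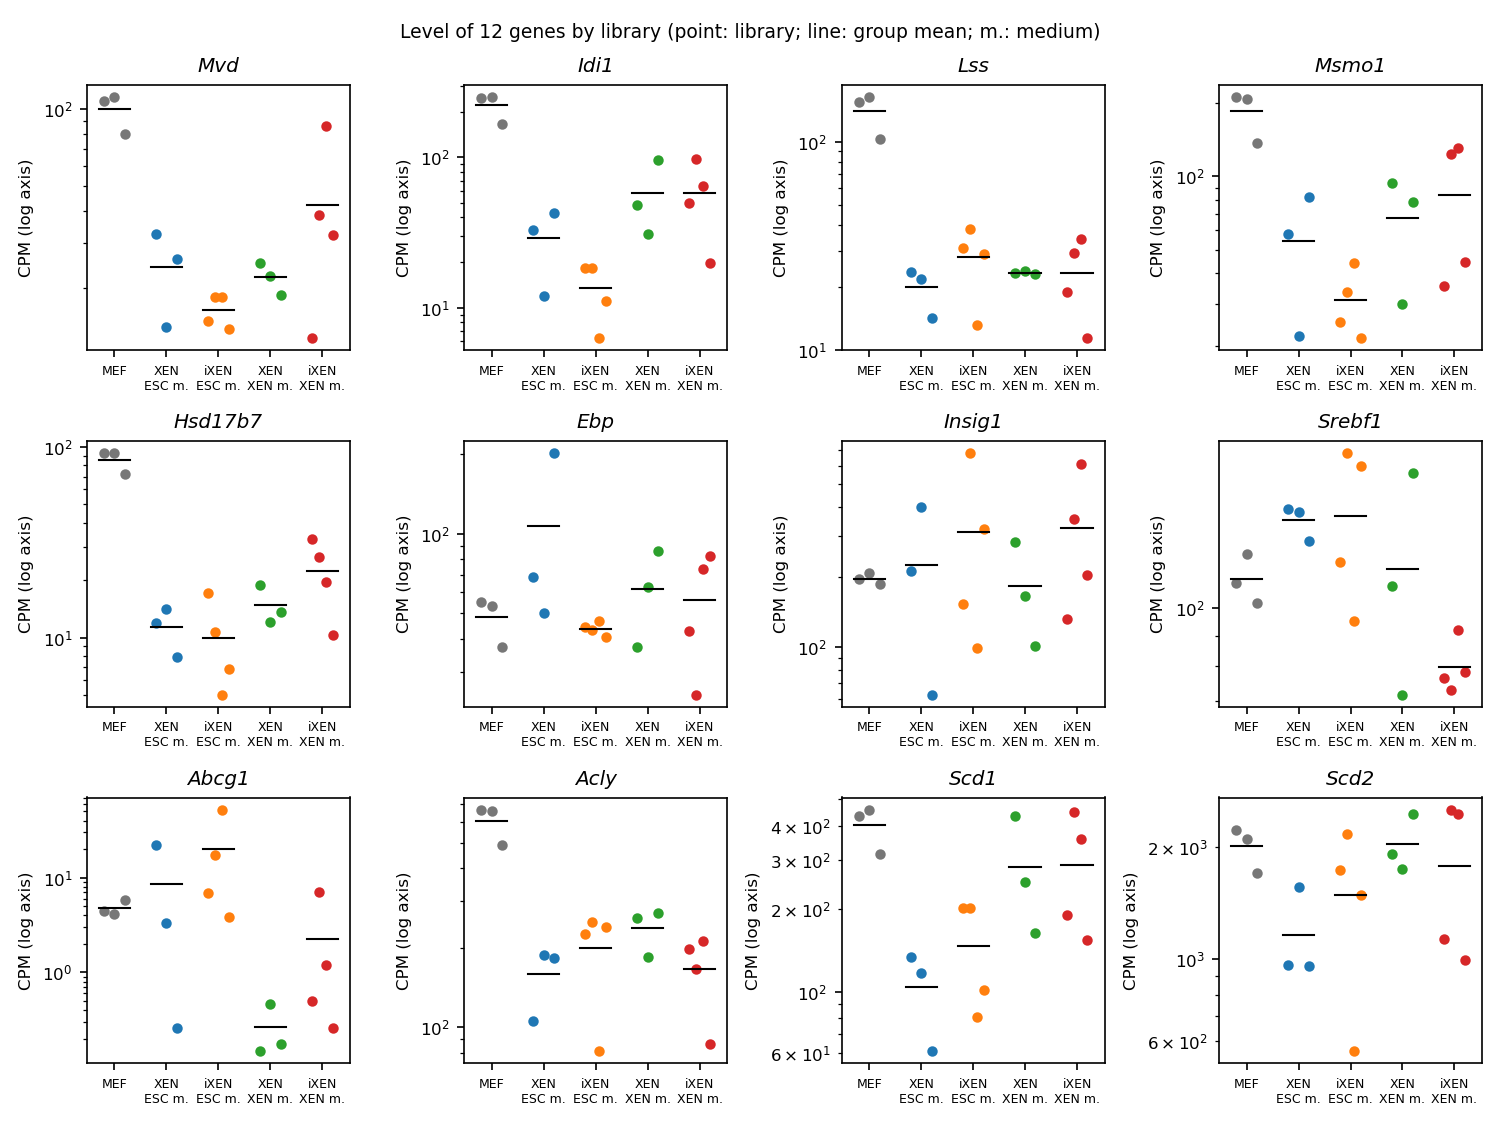
CPM (log axis) of 12 members in each library, with points for libraries and lines for group means, in MEF (n = 3) and in XEN (n = 3) and iXEN (n = 4) cells in each medium. Idi1, Lss, Msmo1, Hsd17b7 and Acly sit below every MEF library in all 14 others, Ebp, Insig1, Srebf1 and Scd2 straddle MEF, and Abcg1 spans 0.147 to 52.3 CPM.

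The 3 libraries with the most fibroblast collagen transcripts (XEN 2 in ESC medium, with fewer, was kept) were also left out. Without XEN 1 in ESC medium the members called lower against MEF were 15, and without iXEN 2 and 9 in XEN medium they were 17. Over all genes the first omission gave 3779 of 14379 called in either direction, 1481 of them higher. With all libraries there were 3507 of 14001, 1591 of them higher. The second omission gave 7440 of 14362, 3297 of them higher, against 4708 of 14438 with all libraries, 2560 of them higher. The length of transcripts also moved with the groups. Genes were split by their longest protein-coding transcript, under 2395 bases or over 4113 bases. The mean log2 level of short minus long genes, centred over libraries, was -0.89 to -0.69 in MEF, -0.22 to 0.97 for XEN and -0.60 to 0.37 for iXEN cells in ESC medium. In XEN medium it was 0.06 to 0.25 and -0.01 to 0.88. The 9 short, 5 middle and 4 long enzymes had median log2 fold changes, for iXEN cells in ESC medium against MEF, of -2.55, -2.46 and -1.79, beside 0.11, 0.02 and -0.07 over all genes of those classes. In XEN cells in ESC medium they were -1.51, -2.37 and -2.12, beside 0.55, -0.04 and -0.54. In iXEN cells in XEN medium they were -1.15, -1.74 and -1.53, beside 0.62, 0.03 and -0.51. In XEN cells in XEN medium they were -1.68, -1.47 and -1.64, beside 0.42, 0.03 and -0.39.

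iXEN and XEN cells were then compared in the same medium. In ESC medium most enzymes read lower in iXEN cells: 15 of 18 had a negative log2 fold change, with a median of -0.62 beside -0.00334 over all genes. No member was called (edgeR; 0% of all genes), and none by DESeq2 (3.68% of all genes). At unadjusted p under 0.05, 6 members were lower (Acat2, Mvk, Pmvk, Fdps, Tm7sf2 and Ebp; all genes 10.2%) and 0 higher (all genes 3.43%). Fdps had 140.4, 29.6 and 188 CPM in XEN and 33.6, 51.6, 28.6 and 31.1 in iXEN cells, -1.77 ± 0.56 (SE) (95% interval -3.06 to -0.48; edgeR, adjusted p = 0.342). The spread lay in the XEN libraries, of which XEN 2 was inside the iXEN range. Without XEN 2, Fdps was the 1 member called. For Mvk the groups did not overlap, with 35.5, 21.4 and 43.0 CPM in XEN and 13.6, 20.3, 11.99 and 15.2 in iXEN cells (-1.16 ± 0.35 (SE); edgeR, adjusted p = 0.333). Non-overlap held for 4 members (Mvk, Acat2, Pmvk and Ebp), all lower in iXEN cells, and for 6.16% of all genes in that direction. Here transcript length moved the same way: short genes had a median of -0.47 and long genes 0.38, and the short and long enzymes -0.84 and 0.24. Its part in the result was not tested. XEN 1, with fibroblast collagen transcripts, is one of the 3 XEN libraries.

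In XEN medium the enzymes showed no common direction between iXEN and XEN cells, with 9 of 18 positive and a median of 0.05 beside 0.04 over all genes. No member was called by edgeR (0% of all genes) or by DESeq2 (1.01%). At unadjusted p under 0.05 there was 1, Abcg1, higher in iXEN cells (all genes 2.04% higher) by 3.12 ± 1.30 (SE) (edgeR, adjusted p = 0.985); iXEN 2 alone held 7.04 of its 0.494, 7.04, 1.20 and 0.261 CPM. The intervals remain wide: for Mvd, at the largest enzyme difference, the difference was 0.95 with a 95% interval of -0.36 to 2.26, and for Lss, near 0, the interval was -0.94 to 0.93.

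The medium comparison asks how the levels differed after 5 passages in XEN medium in place of ESC medium. In iXEN cells the cholesterol enzymes read higher in XEN medium and the exporters lower. Of 18 enzymes 16 had a positive log2 fold change, with a median of 1.04 beside 0.08 over all genes. No member passed edgeR's test (0% of all genes). At unadjusted p under 0.05, 10 members were higher (all genes 13.4%) and 3 lower (all genes 9.98%). DESeq2 called 7 higher (all genes 6.93%), Acat2, Pmvk, Idi1, Fdps, Fdft1, Cyp51 and Msmo1, and 2 lower (all genes 5.01%), Abca1 and Abcg1. One edgeR fit over all 17 libraries called 2, Acat2 and Idi1. Idi1 went from 18.5, 18.4, 6.27 and 11.2 CPM in ESC medium to 49.6, 97.9, 64.2 and 19.95 in XEN medium, 2.11 ± 0.51 (SE) (edgeR, adjusted p = 0.0750; DESeq2, adjusted p = 0.00355). Every iXEN library in XEN medium lay above every one in ESC medium. Acat2 showed the same separation, from 35.0, 36.0, 32.0 and 35.8 to 55.8, 82.6, 177 and 82.0 CPM (1.54 ± 0.35 (SE); edgeR, adjusted p = 0.0686; DESeq2, adjusted p = 0.00422), as did Pmvk, from 26.1, 35.6, 35.4 and 32.1 to 38.7, 74.0, 154 and 82.6. With Fdft1, 4 members were apart in the higher direction, beside 6.21% of all genes. Abca1 went the other way, from 136, 154, 37.1 and 88.4 to 38.4, 42.1, 22.8 and 30.8 CPM, with iXEN 6 in ESC medium among the XEN-medium values (-1.61 ± 0.42 (SE); edgeR, adjusted p = 0.0898; DESeq2, adjusted p = 0.0128). Without iXEN 6 in ESC medium, Abca1 was the 1 member called by edgeR. Srebf1, like the exporters an LXR target, read 119.9, 182, 95.4 and 173 CPM in ESC and 76.4, 72.8, 92.0 and 78.2 in XEN medium with no overlap (-0.81 ± 0.26 (SE); edgeR, adjusted p = 0.123), the only member apart in the lower direction (all genes 5.81%). Lss, at -0.23, and Ggps1, at -0.04, were the 2 enzymes without a positive difference. The fatty acid genes were split, with 3 of 6 positive and a median of 0.13.

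In XEN cells the medium difference of the enzymes was smaller, with 12 of 18 positive and a median of 0.26 beside -0.04 over all genes. No member was called by edgeR (0% of all genes), and at unadjusted p under 0.05 there were 2 higher (Stard4 and Scd1; all genes 2.49%) and 2 lower (Scap and Abcg1; all genes 3.14%). DESeq2 called Abcg1 alone (0.418% of all genes lower). Abcg1 went from 22.0, 3.36 and 0.261 CPM in ESC medium to 0.147, 0.468 and 0.177 in XEN medium, -5.06 ± 1.60 (SE) (edgeR, adjusted p = 0.800; DESeq2, adjusted p = 0.0212), with XEN 7 in ESC medium inside the XEN-medium range. Scap had 61.2, 61.6 and 55.0 CPM in ESC and 33.9, 32.5 and 37.7 in XEN medium, without overlap (-0.81 ± 0.26 (SE); edgeR, adjusted p = 0.800). Scd1 went from 134, 117 and 60.7 to 435, 249 and 164 CPM, also without overlap (1.41 ± 0.49 (SE); edgeR, adjusted p = 0.800). The media did not overlap for 7 members higher and 1 lower in XEN medium, beside 7.42% and 5.13% of all genes. Scaling by total counts shifted the log2 fold changes of all genes by a median of 0.12 in this comparison. In the interaction of cell type and medium the median shift was -0.17.

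Whether the medium difference itself differed between iXEN and XEN cells was tested as an interaction. The median over the 18 enzymes was 1.063 beside 0.07 over all genes. Transcript length moved here too: all short genes had a median of 0.67 and all long genes -0.47. The 9 short, 5 middle and 4 long enzymes had 1.20, 0.32 and -0.48. The part of transcript length in the interaction was not tested. No member was called by edgeR (0% of all genes) or DESeq2 (3.28%). At unadjusted p under 0.05 the interaction was positive for 5 members, Acat2, Mvk, Mvd, Fdps and Scap (all genes 10.8%). All but Scap, a regulator, are among the short enzymes. Fdps gave the largest value, 2.25 ± 0.84 (SE) with a 95% interval of 0.43 to 4.07 (edgeR, adjusted p = 0.268).

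Library by library, the mean log2 ratio of the 18 enzymes to MEF was -1.63, -2.23 and -1.43 in XEN cells in ESC medium, against -1.27, -1.74 and -1.295 in XEN medium. In iXEN cells it was -2.18, -1.95, -2.57 and -2.34 in ESC medium, against -1.86, -1.19, -0.74 and -1.88 in XEN medium. For each of the 7 replicate numbers the library in XEN medium was above the library in ESC medium. Nothing states that libraries sharing a number come from the same line. The number of enzymes that were higher in XEN medium was 12, 15 and 10 of 18 for XEN 1, 2 and 7, and 12, 16, 18 and 14 for iXEN 1, 2, 6 and 9, while 46.4% to 51.6% of all genes were higher. The libraries numbered iXEN 6 spanned the whole range: the library in ESC medium was the lowest of 14 for 7 enzymes and the library in XEN medium the highest for 7. Among the iXEN libraries of each medium, those of iXEN 6 also had the highest short-minus-long transcript index, 0.37 and 0.88. In the iXEN medium comparison all short genes had a median log2 fold change of 0.50 and all long genes -0.32; the 9 short enzymes had 1.39, the 5 of middle length 1.17 and the 4 long ones 0.02. The part of transcript length in the medium difference was not tested beyond these values. The fibroblast transcripts moved with it too, since iXEN 2 and 9 reached 2199 and 979.6 CPM of them only in XEN medium. With iXEN 2 and 9 in XEN medium left out, edgeR again called no member between the media in iXEN cells. Of 32 members 23 then had a positive log2 fold change, against 20 with all libraries. The part of the fibroblast transcripts in the medium difference was not tested beyond this fit.

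**Figure D5:**
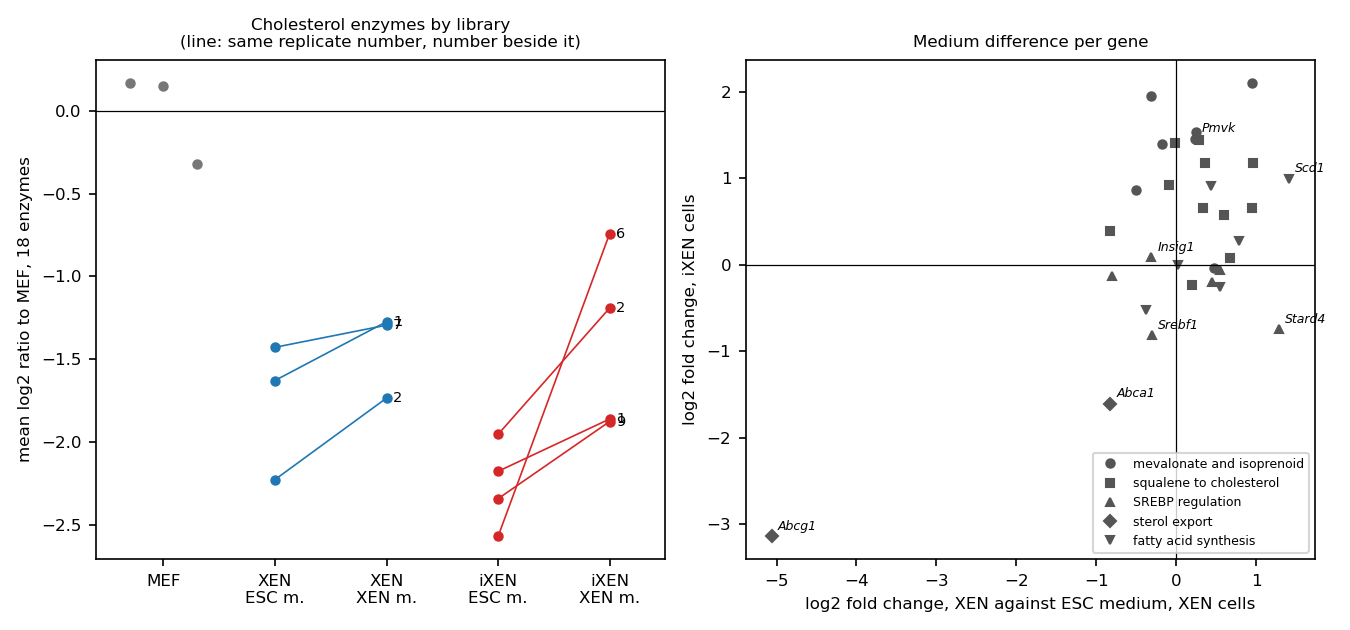
Left, the mean log2 ratio to MEF of the 18 enzymes in each library, with lines joining libraries of the same replicate number in ESC and XEN medium; all 7 lines slope upward and iXEN 6 runs from -2.57 to -0.74. Right, each gene's log2 fold change between the media in XEN (horizontal) and iXEN cells (vertical); most enzymes lie above 0 in iXEN cells, and Abcg1 and Abca1 lie below 0 in both.

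Over the 14 XEN and iXEN libraries, Pearson's r between an enzyme's log2 CPM and the mean of the other enzymes was highest for Fdps (0.90), Idi1 (0.87) and Cyp51 (0.86). It was lowest for Ggps1 (0.02), Ebp (0.16) and Lss (0.21), of which Lss was low in all groups and the other pair were called in no comparison with MEF. Among the other members it was 0.67 for Elovl6, 0.59 for Scd1, 0.20 for Srebf2, -0.22 for Srebf1, -0.52 for Abca1 and -0.58 for Scap. The genes outside the set whose levels were most like the enzyme mean were 2410088K16Rik (0.93), Mettl21a (0.89), Bend5 (0.88), Spink3 (0.87) and Bpgm (0.86). These are descriptions over 14 libraries that share media, depth and the transcript-length shift.

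Other genes of these pathways were counted from 4 lists. Counts against MEF are given for iXEN and XEN cells in ESC medium, then iXEN and XEN cells in XEN medium. Over all genes tested, 25.9%, 13.7%, 14.9% and 24.5% were lower and 20.8%, 11.4%, 17.7% and 23.0% higher. Of 16 genes for SREBP processing, NF-Y, Sp1 and the LXR receptors, 3, 2, 1 and 2 were lower and 7, 0, 2 and 4 higher. Rxra, the partner of LXR, had log2 fold changes of -3.40 ± 0.53 (SE) in iXEN cells in ESC medium (edgeR, adjusted p = 0.000991) and -4.13 ± 0.57 (SE) in XEN cells in XEN medium (edgeR, adjusted p = 0.00256). Mylip, a ubiquitin ligase induced by LXR that degrades lipoprotein receptors, was called lower in all 4 comparisons, at -2.47, -3.11, -3.50 and -3.32. Of 13 genes for sterol uptake, transport and storage, 4, 2, 2 and 3 were lower and 4, 3, 4 and 3 higher. Lrp1, a large endocytic lipoprotein receptor, was called lower in all 4, at -5.44, -4.06, -3.95 and -6.06, and its chaperone Lrpap1 higher in all 4, at 3.76, 4.05, 3.34 and 3.77. Lrpap1 read 116, 98.4 and 120.4 CPM in MEF and 691 to 2122 in the others. Lrp1 was highest of the 14 in iXEN 9 in XEN medium, at 315 CPM, and XEN 1 in ESC medium, at 212, both of which held fibroblast transcripts, whose part was not tested. Ch25h, which makes 25-hydroxycholesterol, had 3.76, 4.44 and 3.92 CPM in MEF and 0.0840, 0, 0 and 0 in iXEN cells in ESC medium, where it was called lower (edgeR, adjusted p = 0.000193) at a level too low for a fold. Of 13 genes that use isoprenoids for prenylation, dolichol or ubiquinone, 0, 1, 0 and 0 were lower and 1, 2, 5 and 2 higher, with Rabggtb, a Rab prenyltransferase subunit, at 1.03 in iXEN cells in ESC medium. Of 20 tested fatty acid genes outside the set (23 were listed), 10, 3, 2 and 7 were lower and 3, 1, 1 and 0 higher. Mid1ip1, an activator of acetyl-CoA carboxylase, was at -4.45, Fads2, a desaturase of polyunsaturated fatty acids, at -2.64, and Aacs, which activates acetoacetate for lipid synthesis, at -2.30 in iXEN cells in ESC medium. Aacs was called lower in all 4 comparisons.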

How the data were processed

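Messenger RNA of 17 samples was sequenced after Trizol extraction with the TruSeq mRNA kit, per the labels' protocols. The deposited counts are whole numbers of reads per gene symbol, made by the authors with FastQC 0.11.3, Trimmomatic 0.32, TopHat2 2.0.12 and HTSeq 0.6.1 on mm9, per the submitters' processing notes. The 5 counter lines for reads not assigned to a gene (20.8% to 33.1%) were left out.

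Counts were tested with edgeR 4.0.16 (R 4.3.3), keeping genes that passed filterByExpr (minimum count 10, minimum total 15), with TMM factors, the quasi-likelihood test on the libraries compared and Benjamini-Hochberg adjustment over all genes tested at 0.05. Errors are SE or 95% intervals, and log2 CPM used a prior count of 2. Alternatives were DESeq2 1.42.0, other scalings, no filter, 1 fit over all libraries, a replicate block and left-out libraries.

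Replicates differed beyond sampling noise (chi-square per degree of freedom 43.4 to 1219), so none was counted as repeat sequencing of 1 library. These values cannot tell separate lines from further preparations of the same cells. Deviations of XEN libraries with the same number correlated across the media at r = 0.240, 0.377 and 0.635 over 15249 genes. Only number 7 was the best match in both directions, and XEN 2 in ESC medium correlated best with XEN 1 in XEN medium. With or without the block, edgeR called 0 genes between the media in XEN cells. The members, the other pathway lists and the marker lists were chosen with earlier results of these data known. Every member may be named; per-library values are given for those called most often in each role and those against its direction, and for other pathway lists up to 3 genes per comparison. Further members, including those in the plot of CPM, were shown after their values were seen. Promoters came from RefSeq (GRCm38.p6), matched by symbol, while reads were aligned to mm9.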

Additional observations from a re-analysis of the deposited data

Results flagged for a closer look

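Within the groups of 4 libraries, 4 of 64 sets of member values held a library whose gap to the nearest other, as a share of the range, exceeded Dixon's 95% critical value; chance gives about 1 in 20. Acly in iXEN 6 in ESC medium stood at 80.9 CPM, with the nearest library at 226. Sc5d in iXEN 9 in XEN medium stood at 12.3 CPM, with the nearest library at 35.5. Abcg1 in iXEN 2 in XEN medium stood at 7.04 CPM, with the nearest library at 1.20, and Acaca in iXEN 1 in XEN medium at 91.3 CPM, with the nearest library at 48.8.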

How the results depend on the processing

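The count of members called for iXEN cells in ESC medium against MEF stayed within 1.5 times of 22 in every setting run. With a replicate block, joining libraries that share only a number, it went from 18 to 9 for XEN in ESC medium and from 14 to 0 for iXEN in XEN medium, where no gene of the whole table was called. The numbers 1 and 2 shared with MEF correlated at -0.106 to 0.1101 across genes. With 1 library left out at a time the counts ranged from 22 to 25 for iXEN in ESC medium, 4 to 20 for XEN in ESC medium, 5 to 16 for iXEN in XEN medium and 12 to 23 for XEN in XEN medium, each minimum reached without a MEF library. They ranged from 0 to 1 for iXEN against XEN in ESC medium (Fdps without XEN 2) and for the medium in iXEN cells (Abca1 without iXEN 6 in ESC medium). For iXEN in ESC medium against MEF, the calls gained without iXEN 6 were Abca1, Ggps1 and Srebf1. Their log2 fold changes with all libraries were positive, at 0.54, 0.38 and 0.38. Abcg1, at 2.11, was gained without iXEN 9, and Abca1 and Abcg1 with the replicate block. DESeq2 called 1 member for the medium in XEN cells and 9 in iXEN cells, and 1 fit over all libraries called 2 in iXEN cells. The replicate block changed no other count by over 1.5 times. Same-numbered iXEN libraries in the 2 media correlated at 0.144, 0.181, 0.123 and -0.0344, and not every library correlated best with its own number. Of 980 values of called members under alternatives, 838 stayed called, 142 did not and 0 turned direction. For the other pathway genes named, 459 of 572 stayed called. Depth limited Abcg1 in XEN medium, with 6, 17 and 9 counts in XEN cells. It also limited Ch25h in iXEN cells in ESC medium, with no reads in 3 of 4 libraries. For Hmgcs1, with 0 counts in all 17 libraries, absent transcripts and a fault in the annotation used for counting cannot be told apart.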
